A study of Mus musculus with 28 samples.

Results

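The 8 genes described here, Foxp3, Ikzf2, Ikzf4, Lrrc32, Gpr83, Nrp1, Entpd1 and Nt5e, mark regulatory T cells (Tregs) or serve their suppressive functions. They were taken by symbol from the 23222 gene symbols of the deposited tables, by a rule that used no measured value but was set with earlier results of these data known, and the transcript with the highest mean level stands for each gene. All 8 reached 1 RPKM, which is reads per kilobase of transcript, scaled to library size. The cells were wild-type C57BL/6 mouse spleen CD4+ T cells, activated for 3 days on plate-bound anti-CD3 (2 µg/ml) with anti-CD28 (1 µg/ml) and rested overnight. RNA-seq was made from cells kept with IL-2 for 4 times (0.5, 2, 4 and 24 h), cells kept with IL-21 for the same times, and cells left without cytokine, with 1 library for each of these 9 conditions. Cytokine doses are stated in the labels for the chromatin cultures and not for the RNA cultures, and the 19 chromatin samples among the 28 of the series are not analysed here. The labels name no Treg sort or Treg depletion and no Treg differentiation culture, so the values are those of activated CD4+ T cells as a whole.

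Tregs are CD4+ T cells that restrain other immune cells. Their identity rests on the transcription factor Foxp3, whose gene depends on IL-2 signalling through STAT5, and Tregs need IL-2 to persist while making little of it. IL-21 is a helper T cell cytokine that uses the same common gamma chain but signals mainly through STAT3. The Ikaros family members Helios (Ikzf2) and Eos (Ikzf4) work with Foxp3 in the nucleus. GARP (Lrrc32) holds latent TGF-beta on the cell surface, and Gpr83 is a G protein-coupled receptor enriched in Tregs. Neuropilin-1 (Nrp1) is a receptor for semaphorins and growth factors that is used to mark Tregs made in the thymus. CD39 (Entpd1) and CD73 (Nt5e) act one after the other on extracellular ATP and AMP to give adenosine. Several of these genes are also used by other cells: Lrrc32, Ikzf2 and Ikzf4 can be switched on in activated conventional T cells, and Entpd1, Nt5e and Nrp1 are found on B cells, myeloid cells or dendritic cells.

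Promoter windows from RefSeq on GRCm38.p6, each running from 250 bases before to 50 bases after an annotated start, were found for 5 of the 8 genes, in 7 windows. No window was listed for Ikzf2, Ikzf4 and Lrrc32, so their promoters were not searched. The 7 windows were searched on both strands for the interferon-gamma activated sequence TTCNNNGAA, the element that STAT5 and STAT3 bind. It lay in 1 of the 7 windows, at one of the 2 annotated Foxp3 starts, where the element begins 139 bases before the start. Among the 32851 windows listed, 8.3% hold this element. The wider form with 4 bases between TTC and GAA lay in 0 of the 7 windows and in 6.95% of all windows. A search for TATAAA, added after the levels had been seen, found it at the other Foxp3 start and at Gpr83, and in 13.6% of all windows. The 3 windows are shown because they hold these matches at the 2 genes, with the matches in capitals. A match is a description of the letters only.

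Foxp3, chrX:7580233-7580532, plus strand, TTCNNNGAA in capitals: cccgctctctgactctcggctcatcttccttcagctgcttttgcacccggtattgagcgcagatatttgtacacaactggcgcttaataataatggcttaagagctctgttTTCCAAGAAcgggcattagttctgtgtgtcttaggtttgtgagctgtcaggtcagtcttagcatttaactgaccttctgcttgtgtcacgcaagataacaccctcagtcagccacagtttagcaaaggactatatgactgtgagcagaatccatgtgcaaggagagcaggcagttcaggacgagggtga

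Foxp3, chrX:7579426-7579725, plus strand, TATAAA in capitals 32 bases before the start: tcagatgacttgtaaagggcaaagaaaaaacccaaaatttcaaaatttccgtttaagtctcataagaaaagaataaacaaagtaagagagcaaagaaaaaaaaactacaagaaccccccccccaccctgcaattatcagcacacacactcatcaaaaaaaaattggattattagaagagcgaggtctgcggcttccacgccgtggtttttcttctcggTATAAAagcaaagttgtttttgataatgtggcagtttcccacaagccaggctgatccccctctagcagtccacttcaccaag

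Gpr83, chr9:14859960-14860259, plus strand, TATAAA in capitals beginning 1 base before the start and running past it: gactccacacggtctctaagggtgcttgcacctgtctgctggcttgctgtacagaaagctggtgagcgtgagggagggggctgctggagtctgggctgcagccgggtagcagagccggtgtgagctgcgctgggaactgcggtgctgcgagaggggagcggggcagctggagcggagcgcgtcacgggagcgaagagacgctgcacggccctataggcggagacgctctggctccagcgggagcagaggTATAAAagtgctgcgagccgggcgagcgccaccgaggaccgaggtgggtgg

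Several kinds of time course appeared among the 8 genes. Lrrc32 and Gpr83 were higher with each longer time in IL-2 up to 4 h; at 24 h Lrrc32 was level with 4 h and Gpr83 was lower than at 4 h but above its other levels. They were also higher with IL-21, later and by less. Ikzf4, Nt5e and Nrp1 peaked at 2 h with IL-2 and were lower again by 24 h. Foxp3 itself was highest with IL-2 at 4 h and lowest with IL-2 at 24 h, and Ikzf2 with IL-2 stayed within counting error of the level without cytokine up to 4 h. At 24 h both were lower with IL-2 than with IL-21. Each value below comes from 1 library, so ratios carry an exact 95% interval from the 2 read counts (conditional binomial), which covers counting error only, and no p-value is given for 2 libraries.

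**Figure D1:**
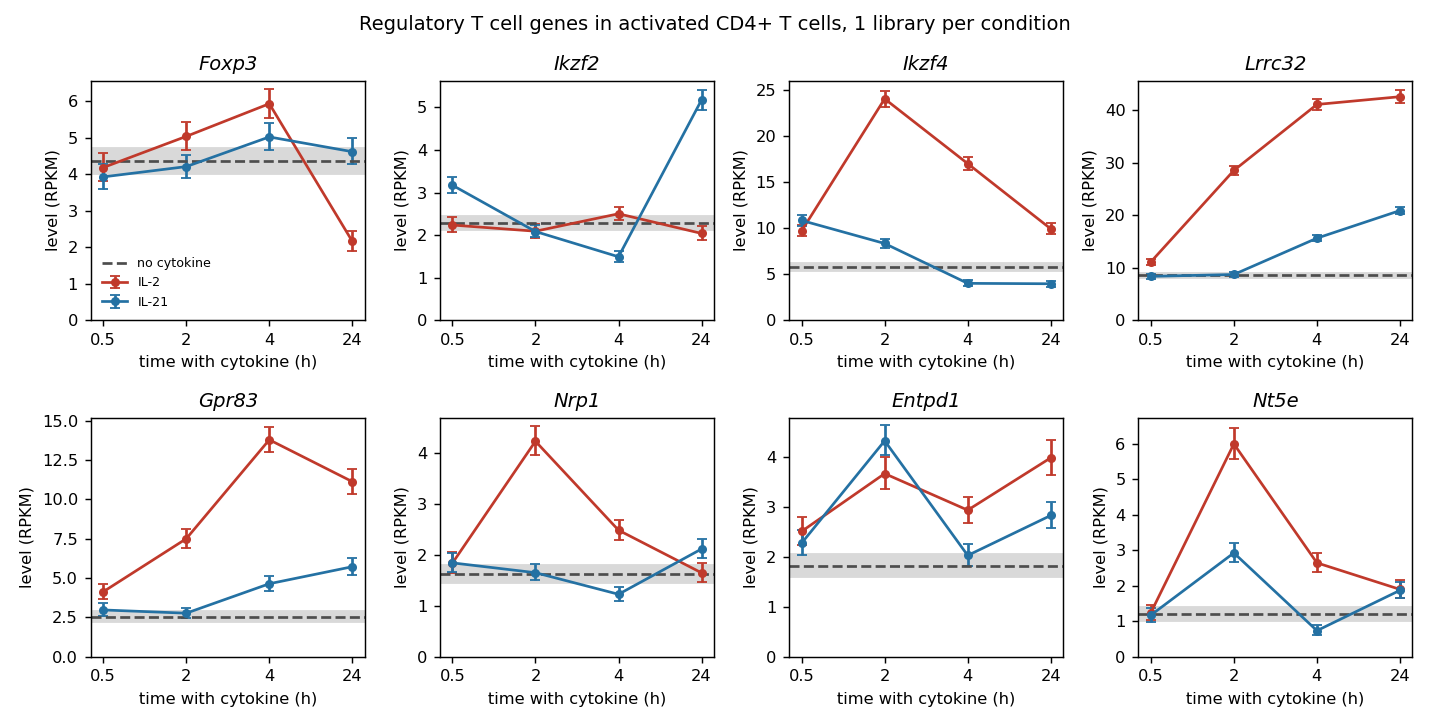
Level in RPKM (vertical axes, each from 0) of the 8 genes against time with cytokine in hours (evenly spaced categories), with IL-2 in red, IL-21 in blue and the library without cytokine as a dashed line. Bars and the grey band are exact 95% binomial intervals of the reads of 1 library each, out of its total. Lrrc32 with IL-2 reached 42.6 RPKM at 24 h, against 8.53 RPKM without cytokine.

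Foxp3, the lineage-defining factor (NM_054039, chromosome X, plus strand), had 4.18, 5.03, 5.93 and 2.16 RPKM with IL-2 at 0.5, 2, 4 and 24 h. With IL-21 it had 3.92, 4.21, 5.02 and 4.61 RPKM at those times, and without cytokine 4.35 RPKM. The IL-2 library at 24 h stood apart below all others, and the remaining libraries lay between 3.92 and 5.93 RPKM. In the order of the 9 levels, 2 of the 8 neighbouring pairs had an interval that left out equality, at the top and at the bottom. Neighbours in a sorted order have the smallest gaps, so this count does not show that the levels were alike. IL-2 at 2 h (ratio 1.16, 1.03 to 1.30) and IL-21 at 4 h (1.15, 1.03 to 1.29) were also above no cytokine. Against no cytokine, the ratio was 1.36 (1.23 to 1.52) with IL-2 at 4 h and 0.496 (0.426 to 0.576) with IL-2 at 24 h. Against IL-21 at 24 h, the ratio with IL-2 was 0.467 (0.403 to 0.541). The 3 annotated Foxp3 transcripts share nearly all their reads, and at 24 h with IL-2 they were listed at 2.12, 2.17 and 2.16 RPKM. Foxp3 overlaps Ccdc22 on the opposite strand, and whether the authors' counting used strand is not given in the sources used here. Ccdc22 had 15.9, 12.5, 13.9 and 11.2 RPKM with IL-2, 13.8, 9.71, 12.2 and 10.5 RPKM with IL-21, and 15.5 RPKM without cytokine, and its part in the Foxp3 values was not tested. In bulk RNA, fewer Foxp3-expressing cells and less Foxp3 RNA per cell cannot be told apart. The summed level of the CD4+ T cell markers was also lowest in that library. Their 7 genes summed to 1390, 1000, 868 and 824 RPKM with IL-2 at 0.5, 2, 4 and 24 h. With IL-21 they summed to 1300, 1070, 1110 and 1360 RPKM at those times, and without cytokine to 1400 RPKM. The sum hides Trat1, which went the other way. Its log2 fold change for IL-2 against IL-21 over the 4 times was 0.449 (edgeR's adjusted p = 0.332). The part of these markers in the Foxp3 value was not tested.

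Ikzf2, which encodes Helios (NM_011770, chromosome 1, minus strand), had 2.235, 2.09, 2.50 and 2.04 RPKM with IL-2 at the 4 times in order. With IL-21 it had 3.17, 2.08, 1.49 and 5.18 RPKM, and without cytokine 2.29 RPKM. The IL-2 libraries and the library without cytokine were nearly level, whereas the IL-21 libraries held both the highest and the lowest value. The ratio of IL-21 to no cytokine was 0.651 (0.582 to 0.728) at 4 h and 2.26 (2.08 to 2.47) at 24 h. At 24 h the level with IL-2 was 0.394 of that with IL-21 (0.358 to 0.432).

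Ikzf4, which encodes Eos, a corepressor partner of Foxp3 (NM_011772, chromosome 10, minus strand), had 9.70, 24.1, 17.0 and 9.93 RPKM with IL-2. The IL-21 libraries had 10.8, 8.33, 4.00 and 3.95 RPKM, and without cytokine 5.76 RPKM. At 0.5 h both cytokine libraries were above no cytokine, with ratios of 1.68 (1.53 to 1.86) for IL-2 and 1.88 (1.72 to 2.06) for IL-21. By 2 h the IL-2 library was 4.18-fold (3.85 to 4.54) above no cytokine. By 24 h the IL-21 library was below no cytokine, at a ratio of 0.686 (0.612 to 0.769). The IL-2 to IL-21 ratio was 0.895 (0.824 to 0.972) at 0.5 h, 2.89 (2.71 to 3.08) at 2 h, 4.26 (3.88 to 4.68) at 4 h and 2.51 (2.26 to 2.79) at 24 h. Of the 8 neighbouring pairs in the order of its levels, 6 had intervals that left out equality, the most of the 8 genes.

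Lrrc32, which encodes GARP (NM_001113379, chromosome 7, plus strand), had the highest mean level of the 8, at 20.6 RPKM. With IL-2 it had 11.1, 28.5, 41.1 and 42.6 RPKM, with IL-21 8.34, 8.69, 15.6 and 20.9 RPKM, and without cytokine 8.53 RPKM. Every IL-2 library was above the library without cytokine, and the first 2 IL-21 libraries were not distinguishable from it. Against no cytokine, IL-2 gave ratios of 3.35 (3.13 to 3.58) at 2 h, 4.82 (4.52 to 5.14) at 4 h and 4.99 (4.68 to 5.33) at 24 h. IL-21 gave 1.83 (1.71 to 1.97) at 4 h and 2.45 (2.29 to 2.63) at 24 h.

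Gpr83, the receptor gene (NM_010287, chromosome 9, plus strand), had 4.13, 7.50, 13.8 and 11.1 RPKM with IL-2. The IL-21 libraries had 2.98, 2.77, 4.64 and 5.72 RPKM, and without cytokine 2.52 RPKM, the lowest of its 9 libraries. Its course had the form of that of Lrrc32. Against no cytokine, the IL-2 ratio was 2.98 (2.53 to 3.52) at 2 h, 5.47 (4.70 to 6.39) at 4 h and 4.41 (3.77 to 5.19) at 24 h. The IL-21 ratio was 1.84 (1.55 to 2.195) at 4 h and 2.27 (1.92 to 2.70) at 24 h.

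Nrp1, the gene of neuropilin-1 (NM_008737, chromosome 8, plus strand), had 1.84, 4.23, 2.49 and 1.65 RPKM with IL-2. Its IL-21 levels were 1.85, 1.65, 1.23 and 2.12 RPKM, and without cytokine 1.62 RPKM. The IL-2 library at 2 h was alone above 4 RPKM, at 2.62-fold (2.304 to 2.98) the level without cytokine and 2.56-fold (2.28 to 2.88) that with IL-21. By 24 h the IL-2 library was no longer distinguishable from no cytokine, with a ratio of 1.02 (0.870 to 1.20).

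Entpd1, which encodes CD39 (NM_009848, chromosome 19, plus strand), had 2.51, 3.66, 2.93 and 3.98 RPKM with IL-2. With IL-21 it had 2.27, 4.32, 2.03 and 2.82 RPKM, and without cytokine 1.82 RPKM, again the lowest of the 9. The highest library was the one with IL-21 at 2 h, at 2.38-fold (2.06 to 2.74) the level without cytokine, against 2.02-fold (1.74 to 2.35) for IL-2 at that time. Every cytokine library except that with IL-21 at 4 h (ratio 1.115, 0.945 to 1.32) was above no cytokine beyond counting error. Of the 8 neighbouring pairs in the order of its levels, 1 was apart beyond counting error.

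Nt5e, which encodes CD73 (NM_011851, chromosome 9, plus strand), had 1.24, 6.00, 2.65 and 1.90 RPKM with IL-2. Its IL-21 levels were 1.17, 2.93, 0.737 and 1.87 RPKM, and without cytokine 1.20 RPKM. Both cytokines had their highest level at 2 h, where the ratio to no cytokine was 5.02 (4.20 to 6.03) for IL-2 and 2.45 (2.03 to 2.97) for IL-21. At 4 h the IL-21 library was below no cytokine, at a ratio of 0.617 (0.475 to 0.799). At 24 h the 2 cytokines were not distinguishable, with an IL-2 to IL-21 ratio of 1.01 (0.841 to 1.22). This is the gene with the fewest reads of the 8, from 103 to 748 in a library.

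Ranked by mean level among the 11045 genes whose highest library reached 1 RPKM, Lrrc32 stood at percentile 71.9, Ikzf4 at 50.7, Gpr83 at 34.9 and Foxp3 at 26.8. The others lay between percentile 13.6 for Nrp1 and 19.0 for Entpd1. The range over the 9 libraries on log2(RPKM + 1) was 2.34 for Ikzf4, 2.22 for Lrrc32, 2.07 for Gpr83 and 2.01 for Nt5e. It was 1.31 for Ikzf2, 1.23 for Nrp1, 1.13 for Foxp3 and 0.916 for Entpd1.

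**Figure D2:**
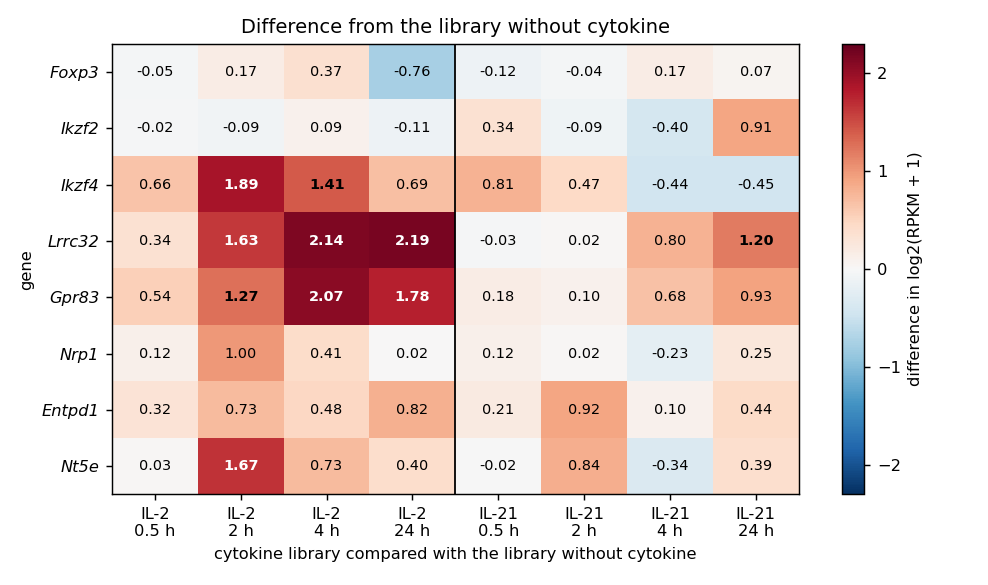
Difference in log2(RPKM + 1) from the library without cytokine (colour and printed value, red higher and blue lower) for the 8 genes in rows and the 8 cytokine libraries in columns, IL-2 left of IL-21; bold marks 2-fold or more. Lrrc32 and Gpr83 reached 2-fold with IL-2 at 2, 4 and 24 h, and Nrp1 with IL-2 at 2 h lay just under 2-fold, and Foxp3 with IL-2 at 24 h was at −0.76.

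Counts of genes used the difference in log2(RPKM + 1), at 2-fold or more; the pseudocount of 1 RPKM understates the change of low genes, so ratios above 2 do not all count. Against no cytokine at 0.5 h, 0 of the 8 genes were counted for IL-2 in either direction, where 0.398% of all 11045 genes were higher and 0.0362% lower. IL-21 at 0.5 h likewise gave 0, against 0.326% higher and 0.0543% lower. With IL-2 at 2 h, 4 of the 8 were higher (Ikzf4, Lrrc32, Gpr83 and Nt5e) and 0 lower, where 3.14% of all genes were higher and 1.31% lower. The median difference of the 8 was 1.14 there, beside −0.0393 over all genes. With IL-2 at 4 h, 3 were higher (Ikzf4, Lrrc32 and Gpr83) and 0 lower, where 5.37% of genes were higher and 3.3% lower. With IL-2 at 24 h, 2 were higher (Lrrc32 and Gpr83) and 0 lower, against 9.57% higher and 6.65% lower. The median difference of the 8 was 0.61 at 4 h and 0.55 at 24 h, beside 0.0089 and 0.0493 over all genes. With IL-21, 0 of the 8 were counted at 2 h (1.71% of genes higher, 1.18% lower) or at 4 h (1.21% higher, 1.32% lower). At 24 h with IL-21, 1 was higher, Lrrc32, and 0 lower, against 1.62% higher and 1.87% lower. The medians of the 8 with IL-21 were 0.15, 0.06, −0.06 and 0.42 at the 4 times. All 8 of these comparisons share the library without cytokine, which was sampled once, so time in culture and cytokine cannot be told apart in them.

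IL-2 and IL-21 libraries of the same time share time in culture. At 0.5 h, 0 of the 8 genes differed by 2-fold, where 0.217% of all genes were higher with IL-2 and 0.29% lower. At 2 h, 3 were higher with IL-2 (Ikzf4, Lrrc32 and Gpr83) and 0 lower, where 0.643% of genes were higher and 0.688% lower. At 4 h, 4 were higher (the same 3 and Nt5e) and 0 lower, where 2.2% of genes were higher and 1.67% lower. At 24 h, 1 was higher, Ikzf4, and 1 lower, Ikzf2, close to the shares over all genes, 9.84% higher and 6.07% lower. Lrrc32 lay just under 2-fold at 24 h, with a difference of 0.99 on log2(RPKM + 1), and Foxp3 was lower with IL-2 by 0.83. The median of the 8 differences was 0.06, 0.91, 0.86 and 0.20 at 0.5, 2, 4 and 24 h.

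**Figure D3:**
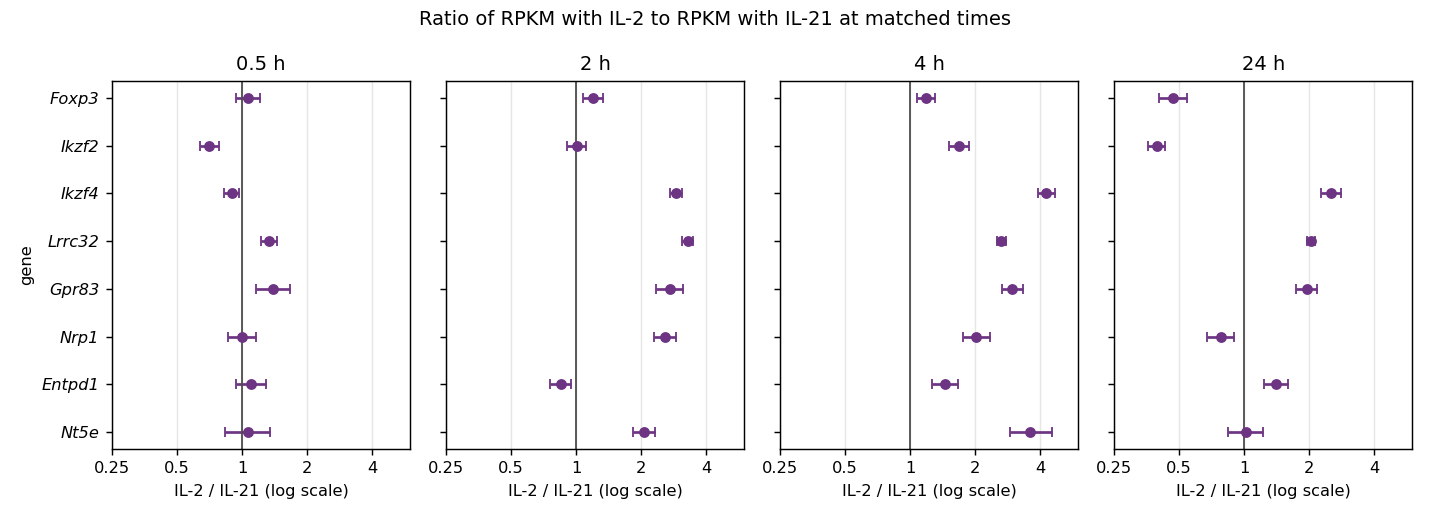
Ratio of the RPKM with IL-2 to the RPKM with IL-21 (horizontal log axis, vertical line at 1) for the 8 genes at each time, with exact 95% counting intervals; each point compares 2 libraries. Foxp3 and Ikzf2 lie left of 1 at 24 h, at 0.467 and 0.394, and Ikzf4 lies at 4.26 at 4 h.

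The scaling of the libraries bears on the shares at the later times. Upper quartile scaling lowers the median difference of all genes by 0.18 at 24 h, both for IL-2 against no cytokine and for IL-2 against IL-21. The genes higher and lower with IL-2 than without cytokine then number 668 and 1061 at 24 h in place of 1057 and 734, and 476 and 483 at 4 h in place of 593 and 364. Against IL-21 at 24 h they number 735 and 1014 in place of 1087 and 670, or 878 and 848 with trimmed-mean (TMM) scaling. Under these scalings the direction of a gene's difference flips for Nrp1 with IL-2 at 24 h, Lrrc32 and Nt5e with IL-21 at 0.5 h, and for IL-2 against IL-21 for Ikzf2 at 2 h and Nt5e at 24 h, all with ratios whose interval holds 1.

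Averaged over the 4 times, Ikzf4, Lrrc32 and Gpr83 had the largest differences between the cytokines, but none of the 8 passed the test. The fit was edgeR's quasi-likelihood test on the read counts of the 8 cytokine libraries, with a term for time, over 10450 genes, with Benjamini-Hochberg adjustment and a threshold of 0.05. It sets the mean difference against its variation between times. Each gene's variation has 3 residual degrees of freedom, and edgeR draws it towards a trend shared over all genes. The test therefore does not rest on the gene's own variation alone. By that test 0 of the 8 were higher and 0 lower, where 0.0191% of genes were higher with IL-2 and 0.0191% lower. At an unadjusted p below 0.05 there were 3 of the 8 and 1524 of all genes. DESeq2 called 3 of the 8, where it called 246 of the 10450 genes higher with IL-2 and 201 lower. With limma on log2(RPKM + 1), 0 of the 8 were called, where 1 of all genes was higher and 2 lower. Ikzf4 had a log2 fold change of 1.16 ± 0.364 (SE) with edgeR's adjusted p = 0.298, higher with IL-2 in 3 of 4 times. Lrrc32 had 1.09 ± 0.231 and Gpr83 1.07 ± 0.219, each higher in 4 of 4 times with adjusted p = 0.253. DESeq2 gave adjusted p of 0.0187, 0.000744 and 0.00119 for these 3 genes, and over all alternatives tried their adjusted p ran up to 0.602. Without the 0.5 h libraries edgeR's adjusted p was 0.0294 for Ikzf4, 0.0407 for Lrrc32 and 0.0489 for Gpr83. Of the 10450 genes, 59 were then called higher with IL-2 and 64 lower. Nt5e (0.70), Nrp1 (0.46), Entpd1 (0.19), Foxp3 (−0.16) and Ikzf2 (−0.32) had smaller log2 fold changes, with edgeR's adjusted p from 0.377 to 0.751. Without the 24 h libraries those of Foxp3 and Ikzf2 turn to 0.17 and 0.05. With 1 time left out, Nrp1 ran from 0.15 without 2 h to 0.77 without 24 h, Nt5e from 0.33 without 4 h to 0.97 without 24 h, and Entpd1 from 0.07 without 4 h to 0.33 without 2 h.

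Between 24 h and 0.5 h, over both cytokines, the same edgeR fit called 0 of the 8 genes in either direction, where 0.0287% of genes were higher at 24 h and 0.23% lower. At an unadjusted p below 0.05 there were 2 of the 8, Lrrc32 and Gpr83, and 2129 of all genes. DESeq2 called these 2, where it called 385 of the 10450 genes higher at 24 h and 455 lower. With limma 0 of the 8 were called, where 6 of all genes were higher and 41 lower. Lrrc32 had a log2 fold change of 1.57 ± 0.328 (SE) with edgeR's adjusted p = 0.113 and Gpr83 1.14 ± 0.309 with 0.15, both higher at 24 h with both cytokines. DESeq2's adjusted p was 0.00043 for Lrrc32 and 0.0217 for Gpr83, and the range over all alternatives went up to 0.245 and 0.246. The labels do not state whether libraries are from separate mice or cultures; p-values here therefore reflect the spread among these libraries alone, and part of it may be technical.

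The pathways of these 8 genes were described from lists that hold some of the 8 themselves. Over all 11045 genes at 24 h, 9.57% were 2-fold higher and 6.65% lower with IL-2 than without cytokine, and 1.62% and 1.87% with IL-21; the medians of all genes were 0.0493 with IL-2 and −0.00379 with IL-21. In the Ikaros family, Ikzf3 (Aiolos) was lower at each longer time with IL-2, where Ikzf4 was above its level without cytokine: Ikzf3 had 86.1, 66.5, 45.8 and 25.3 RPKM with IL-2 at the 4 times, 88.7, 93.7, 92.4 and 71.1 RPKM with IL-21, and 93.5 RPKM without cytokine. Ikzf1 (Ikaros) lay between 83.5 and 93.6 RPKM with IL-2 and between 99.0 and 114 RPKM with IL-21, against 93.2 RPKM without cytokine. At 24 h, 0 of the 5 family genes, Ikzf2 and Ikzf4 included, were 2-fold higher with IL-2 and 1 lower (9.57% and 6.65% of all genes), and with IL-21 0 and 0 (1.62% and 1.87%).

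Among 24 regulators and partners of Foxp3, 1 was 2-fold higher and 3 lower with IL-2 at 24 h (9.57% and 6.65% of all genes), and 0 higher and 1 lower with IL-21 (1.62% and 1.87%). The list's median difference was −0.35 with IL-2 and −0.01 with IL-21, beside 0.0493 and −0.00379 over all genes. The higher gene was Cbfb, the partner subunit of Runx factors, with 85.6 RPKM with IL-2 and 46.6 RPKM with IL-21 at 24 h, against 30.0 RPKM without cytokine. Rel, the NF-kappaB subunit that acts on the Foxp3 gene, had 3.59 RPKM with IL-2 and 6.76 RPKM with IL-21, against 10.8 RPKM without cytokine. Bach2, a repressor that favours Treg formation, had 9.0 RPKM with IL-2 and 27.9 RPKM with IL-21, against 24.7 RPKM without cytokine. Gata3, the Th2 factor that Tregs also use, had 42.4 RPKM with IL-2 and 24.5 RPKM with IL-21, against 55.3 RPKM without cytokine.

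Of 28 measured further genes of the Treg signature, 6 were 2-fold higher and 7 lower with IL-2 at 24 h (9.57% and 6.65% of all genes), and 1 higher and 7 lower with IL-21 (1.62% and 1.87%), with list medians of −0.09 with IL-2 and −0.34 with IL-21. They did not move as a block. Il2ra, the alpha chain of the IL-2 receptor, had 80.5, 302, 433 and 596 RPKM with IL-2, 81.0, 278, 187 and 109 RPKM with IL-21, and 78.5 RPKM without cytokine. Socs2, a feedback inhibitor of STAT5, had 132 RPKM with IL-2 and 15.4 RPKM with IL-21 at 24 h, against 7.73 RPKM without cytokine. Gzmb, the cytotoxic protease granzyme B, had 827 RPKM with IL-2 and 631 RPKM with IL-21, against 187 RPKM without cytokine. Cd83, a surface protein of activated lymphocytes and dendritic cells, had 22.1, 6.46, 5.26 and 3.59 RPKM with IL-2, 17.8, 7.73, 4.85 and 2.2 RPKM with IL-21, and 17.9 RPKM without cytokine. It fell between 0.5 and 24 h (log2 fold change −2.81 ± 0.251, edgeR's adjusted p = 0.0202), the 1 gene of this list that passed that contrast; without the 4 h libraries 0 genes passed it, Cd83 included.

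Of 12 genes that Foxp3 represses in Tregs, 2 were 2-fold higher and 3 lower with IL-2 at 24 h (9.57% and 6.65% of all genes), and 1 higher and 1 lower with IL-21 (1.62% and 1.87%), with medians of 0.05 with IL-2 and −0.16 with IL-21. Tnf, the inflammatory cytokine, passed the test between the cytokines: it had 44.8, 31.9, 31.3 and 22.4 RPKM with IL-2, 11.3, 4.33, 4.6 and 5.04 RPKM with IL-21, and 10.9 RPKM without cytokine. Its log2 fold change for IL-2 against IL-21 was 2.4 ± 0.207 with edgeR's adjusted p = 0.0377, higher in 4 of 4 times, and without the 4 h or the 24 h libraries 0 genes passed, Tnf included. Ifng had 3.04 RPKM with IL-2 and 6.91 RPKM with IL-21 at 24 h, against 0.699 RPKM without cytokine. Il4 had 18.9 RPKM with IL-2 and 3.85 RPKM with IL-21, against 5.97 RPKM without cytokine. Il7r, the IL-7 receptor chain that is low on Tregs, had 54.8 RPKM with IL-2 and 184 RPKM with IL-21, against 170 RPKM without cytokine, and the phosphatase gene Ptpn22 had 29.1 RPKM with IL-2 and 58.7 RPKM with IL-21, against 76.4 RPKM without cytokine.

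**Figure D4:**
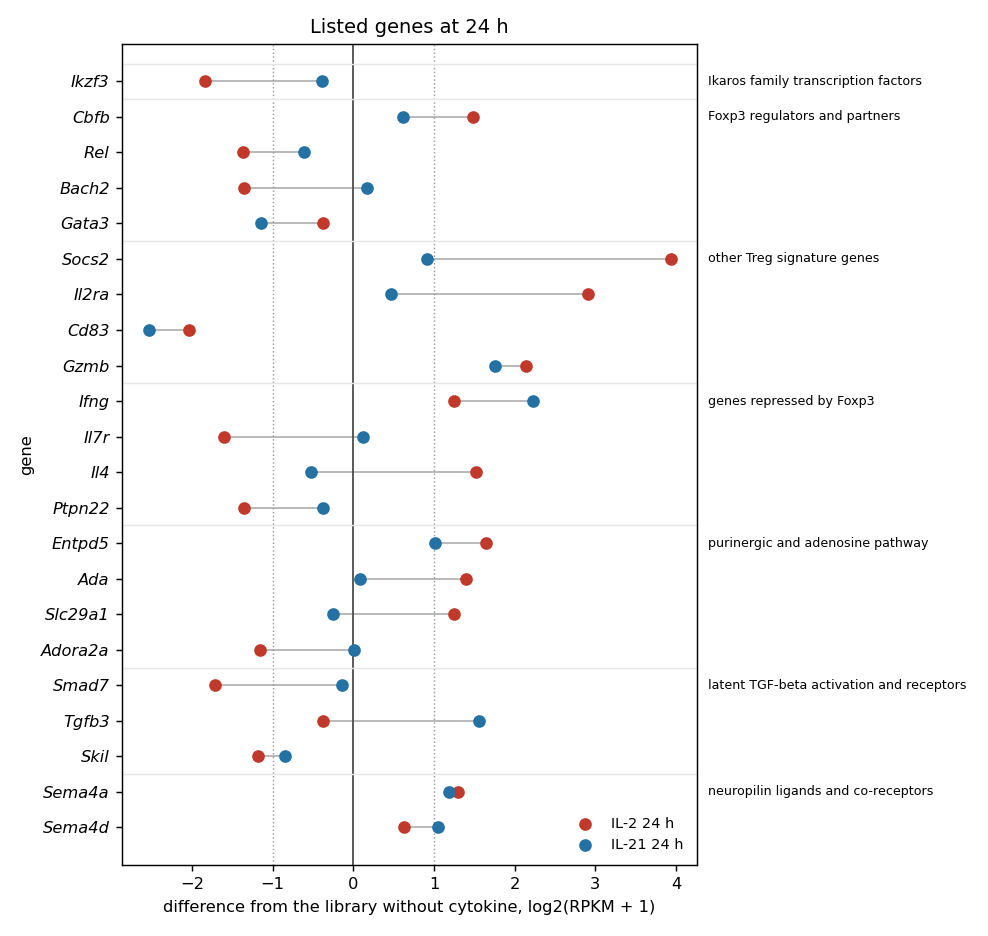
Difference in log2(RPKM + 1) at 24 h from the library without cytokine (horizontal axis; dotted lines at 2-fold) for the genes of 7 lists that differed most there, IL-2 in red and IL-21 in blue, 1 library each. Socs2 and Il2ra lie farthest right with IL-2, at 3.93 and 2.91, while Cd83 lies left of −2 with both cytokines.

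Among 22 measured genes of purine handling, CD39 and CD73 included, 3 were 2-fold higher and 2 lower with IL-2 at 24 h (9.57% and 6.65% of all genes), and 2 higher and 0 lower with IL-21 (1.62% and 1.87%), with medians of 0.27 with IL-2 and 0.04 with IL-21. Ada, which breaks adenosine down, had 9.57 RPKM with IL-2 and 3.26 RPKM with IL-21, against 3.02 RPKM without cytokine. The nucleoside transporter gene Slc29a1 had 37.2 RPKM with IL-2 and 12.5 RPKM with IL-21, against 15.1 RPKM without cytokine. Adora2a, the adenosine receptor of T cells, had 4.21 RPKM with IL-2 and 10.7 RPKM with IL-21, against 10.6 RPKM without cytokine. Entpd5, a relative of CD39 in the endoplasmic reticulum, had 10.8 RPKM with IL-2 and 6.58 RPKM with IL-21, against 2.77 RPKM without cytokine.

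Of 14 measured genes of latent TGF-beta, which GARP displays, 2 were 2-fold higher and 2 lower with IL-2 at 24 h (9.57% and 6.65% of all genes), and 3 higher and 0 lower with IL-21 (1.62% and 1.87%), Lrrc32 being 1 of the higher genes with each cytokine, with medians of −0.42 with IL-2 and −0.13 with IL-21. Tgfb1, the ligand that GARP holds, had 122 RPKM with IL-2 and 46.9 RPKM with IL-21 at 24 h, against 70.0 RPKM without cytokine; it was named for its tie to GARP after its values were seen. Smad7, the feedback inhibitor, had 3.05 RPKM with IL-2 and 11.1 RPKM with IL-21, against 12.3 RPKM without cytokine. Tgfb3 had 1.08 RPKM with IL-2 and 6.89 RPKM with IL-21, against 1.69 RPKM without cytokine, and the SMAD corepressor gene Skil had 6.53 RPKM with IL-2 and 8.47 RPKM with IL-21, against 16.1 RPKM without cytokine. A further list held neuropilins, semaphorins, plexins and vascular endothelial growth factors, Nrp1 included, and not every gene on it is a neuropilin ligand or co-receptor. Of its 10 measured genes, 1 was 2-fold higher with IL-2 at 24 h, near the 9.57% of all genes. With IL-21, 2 were higher (1.62% of all genes), Sema4a and Sema4d. With either cytokine 0 were lower, and the medians were 0.11 with IL-2 and −0.40 with IL-21. Sema4a, a semaphorin ligand reported for neuropilin-1 on mouse Tregs, had 24.7 RPKM with IL-2 and 22.7 RPKM with IL-21, against 9.45 RPKM without cytokine. Sema4d had 101 RPKM with IL-2 and 136 RPKM with IL-21, against 65.3 RPKM without cytokine. Apart from Cd83 and Tnf, no gene of these 7 lists that was in the fit passed either edgeR contrast.

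For the 7 genes with a range of at least 1 on the log2 scale, which leaves out Entpd1, the genes whose levels followed them most closely were taken by Pearson correlation of log2(RPKM + 1) over the 9 libraries, among 10450 genes. These correlations are descriptions, since the points share libraries and a time course. Of all those genes, the one ranked first for Gpr83 was Lrrc32 (r = 0.982), and Gpr83 was ranked behind Zdhhc8 (r = 0.983) for Lrrc32, ahead of Slc35b4 (0.981). Zdhhc8 (0.981) and Pdia4 (0.972) came next for Gpr83. For Foxp3 they were Zdhhc24 (0.967), Prickle3 (0.959) and Plekhn1 (0.952). Prickle3 lies near Foxp3 on chromosome X, with 3 protein-coding genes between them in the RefSeq order, Ccdc22, Cacna1f and Syp. Like Foxp3, Prickle3 was lowest with IL-2 at 24 h, at 4.91 RPKM, against 8.88 RPKM with IL-21 at 24 h and 8.23 RPKM without cytokine. Ccdc22, which lies between them, was instead lowest with IL-21 at 2 h, at 9.71 RPKM. At 24 h it had 11.2 RPKM with IL-2 and 10.5 RPKM with IL-21. A tie between place and level was not tested. For Ikzf2 they were Ids (0.942), Btla (0.940) and Ccdc126 (0.934), and for Ikzf4 Tiam1 (0.922), 2610020H08Rik (0.916) and Eml4 (0.911). For Nrp1 they were D930015E06Rik (0.929), Dennd1b (0.893) and Mfhas1 (0.891), and for Nt5e Itpripl2 (0.952), Ss18 (0.948) and Ppargc1b (0.943).

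The libraries held 29.5 to 44.3 M reads by the authors' totals, and the 8 genes had between 103 and 6342 reads in a library. Markers of CD4+ T cells were present throughout, and markers of other cells moved with time. The 10 B cell markers summed to 27.8 RPKM with IL-2 and 11.6 RPKM with IL-21 at 24 h, against 60.7 RPKM without cytokine, with ranges of 27.8 to 59.7 RPKM over the IL-2 libraries and 11.6 to 57.1 RPKM over the IL-21 libraries. The sum of the 8 dendritic cell markers ranged from 43.0 to 62.5 RPKM with IL-2 and from 23.9 to 54.1 RPKM with IL-21, against 55.1 RPKM without cytokine, with Zbtb46, Xcr1, Clec9a and Siglech under 1 RPKM in every library. Only H2-Ab1 and Batf3 of this list reached a mean of 1 RPKM. The sum of the 11 macrophage and monocyte markers ranged from 3.67 to 12.6 RPKM with IL-2 and from 8.65 to 13.1 RPKM with IL-21, against 12.5 RPKM without cytokine, with 7 of them, Csf1r, Cd14 and Itgam included, under 1 RPKM in every library. The sum of the 6 NK cell markers ranged from 14.3 to 22.7 RPKM with IL-2 and from 16.0 to 50.3 RPKM with IL-21, against 19.4 RPKM without cytokine, with Ncr1, Klrb1c, Klra8 and Klre1 under 1 RPKM throughout. This sum is therefore mostly that of Nkg7 and Eomes, which went opposite ways between the cytokines. Their log2 fold changes for IL-2 against IL-21 were −0.665 and 2.01 (edgeR's adjusted p = 0.416 and 0.206). The sum of the 2 CD8 T cell markers ranged from 6.27 to 10.9 RPKM with IL-2 and from 7.80 to 11.3 RPKM with IL-21, against 9.73 RPKM without cytokine, and 7 of 8 endothelial and stromal markers were under 1 RPKM in every library. In the IL-2 library at 2 h, the B cell sum was 50.2 RPKM and the dendritic cell sum 52.9 RPKM, against 60.7 and 55.1 RPKM without cytokine. The part of other cells in the levels of Entpd1, Nt5e and Nrp1 was not tested.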

How the data were processed

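RNA-seq was made from 9 libraries of activated mouse CD4+ T cells, grouped by the sample labels. The authors deposited, per the file headers, a whole-number read count and an RPKM value for each of 29543 RefSeq transcripts. Deposited RPKM values are counts scaled to transcript length and to 1 total per library. The submitters' processing notes name TopHat2 2.0.11, Bowtie 0.12.9, HOMER, SAMtools and the build mm9 without roles. Which program counted reads, and whether by strand, is not given in the sources used here. Libraries were made with a stranded kit, per the labels' protocols.

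The 8 genes and all lists were chosen with earlier results of these data known. Symbols of short RNAs, and Rn45s by the same symbol rule (745 in all), were left out. Differences between 2 libraries used log2(RPKM + 1) for the 11045 genes at 1 RPKM or more in some library. Ratios carry exact 95% conditional binomial intervals, and levels exact 95% binomial intervals of the reads out of the library total. Both cover counting error alone, because each condition has 1 library. PCR copies were not told apart by molecular identifiers, so the intervals may be too narrow even for counting error. The test across genes was edgeR 4.0.16 (TMM scaling, quasi-likelihood, time as a factor) on the deposited counts of 10450 genes (mean over libraries 1 RPKM or more). Each SE given with an edgeR log2 fold change was back-calculated, as its absolute value over the square root of the test's F statistic. Alternatives were DESeq2 1.42.0, limma 3.58.1 on log2 values, upper quartile scaling, other filters, the longest transcript, a pseudocount of 0.1 RPKM, no time term and each time left out. The edgeR steps were run on simulated counts that held no time effect and no difference in time course between the cytokines. That run therefore does not show how the test behaves on these data. List genes were named if they passed the test between the cytokines, or were up to 4 per list with the largest difference at 24 h at 2-fold or more; Cd83 was added for passing the contrast of times, and a few others (Il2ra time course, Ikzf1, Tgfb1) were added after their values were seen. For each gene with a range of at least 1 on the log2 scale, the 3 genes with the highest correlation were named. Promoter windows matched by symbol for 5 of the 8 genes.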

Additional observations from a re-analysis of the deposited data

Results flagged for a closer look

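For 5 of the 8 genes, the IL-2 to IL-21 ratio lay on opposite sides of 1 at 2 of the times with intervals that left out 1, as did that of 4531 of the 11045 genes (41.0%), so the rule is met by many genes. Each ratio compares 2 libraries, and the difference between the times was not tested. For Foxp3 the ratio was 1.20 at 2 h and 0.467 at 24 h. For Ikzf2 it was 1.68 at 4 h and 0.394 at 24 h. Ikzf4 had a ratio of 0.895 at 0.5 h and 4.26 at 4 h, Nrp1 one of 2.56 at 2 h and 0.779 at 24 h, and Entpd1 one of 0.848 at 2 h and 1.45 at 4 h. Foxp3 and Ikzf2 were both higher with IL-2 at 4 h and both lower with IL-2 at 24 h.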

How the results depend on the processing

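The number of genes called between IL-2 and IL-21 was 4, against 447 with DESeq2, 19 without the RPKM filter, 1 without the time term and 0 to 123 with 1 time left out (123 without 0.5 h, 0 without 4 h and 0 without 24 h). Of the 8 genes, 0 were called, against 3 with DESeq2 and 3 without 0.5 h (0 to 3 with 1 time left out). Between 24 h and 0.5 h, 27 genes were called, against 840 with DESeq2, 66 with upper quartile scaling, 47 with limma, 145 without the RPKM filter, 12 at a mean of at least 5 RPKM, and 0 without 4 h or 27 without 2 h. Of the 8, 0 were called there, against 2 with DESeq2. The cause of these changes was not tested. A mean of at least 5 RPKM kept 3 of the 8 genes (Ikzf4, Lrrc32 and Gpr83). The log2 fold change between the cytokines changed sign without 24 h for Foxp3 (0.166, adjusted p = 0.682) and Ikzf2 (0.0485, adjusted p = 0.976), with ranges of −0.306 to 0.166 and −0.674 to 0.0485 when 1 time was left out (adjusted p over all alternatives and tools 0.681 to 0.919 and 0.568 to 0.976), and that of Nrp1 between 24 h and 0.5 h did with upper quartile scaling (−0.0334, adjusted p = 0.976, over all alternatives and tools 0.955 to 1.0); the sign changes are those of edgeR.

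A pseudocount of 0.1 RPKM counted 2 of the 8 genes in place of 0 for IL-21 at 2 h (all genes 2.96% higher and 2.62% lower), 3 in place of 1 for IL-21 at 24 h (2.65% and 4.13%), and for IL-2 against IL-21 5 in place of 3 at 2 h (1.27% and 1.13%) and 4 in place of 2 at 24 h (12.9% and 9.93%). For IL-2 against no cytokine it counted 5 in place of 4 at 2 h, 4 in place of 3 at 4 h and 3 in place of 2 at 24 h (4.83%, 7.54% and 12.4% of all genes higher). Upper quartile scaling counted 1 in place of 2 for IL-2 against IL-21 at 24 h. Of the 96 differences of the 8 genes, 28 moved by more than counting error with that pseudocount, 8 with upper quartile scaling, 1 with TMM scaling and 0 with the longest transcript or without the filter. Leaving out 24 h or 0.5 h was not run for their own contrast. IL-2 and IL-21 libraries were paired by time through the time term; the labels give no replicate numbers to pair by. With 103 reads in the lowest library, Nt5e has the widest intervals.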
